A study of Mus musculus with 20 samples.

Results

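Ephrins and Eph receptors were followed in endothelial cells sorted from the adult mouse sciatic nerve. The set holds 10 genes, listed by symbol: the ephrins Efna1, Efna5, Efnb1 and Efnb2, and the receptors Epha2, Epha4, Ephb1, Ephb2, Ephb3 and Ephb4. They are 10 of the 22 ephrin and Eph genes, and of the 55376 genes, in the deposited count tables. All 10 were present in both tables and passed the filter on low counts in each.

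Eph receptors are receptor tyrosine kinases whose ligands, the ephrins, stay attached to the membrane of a neighbouring cell. Signals therefore run in both directions at a contact, forward into the receptor cell and reverse into the ephrin cell. A-class ephrins are held by a lipid anchor and B-class ephrins by a membrane-spanning segment. In blood vessels ephrin-B2 (Efnb2) marks arteries and EphB4 (Ephb4) marks veins, and ephrin-A1 with EphA2 acts in angiogenesis. In the injured nerve, ephrin-B on fibroblasts is known to act on EphB2 of Schwann cells and to sort these into cords.

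Bulk polyA RNA of sorted cells was sequenced in 2 experiments, here called Tomato and Cherry after their reporters. In Tomato, Cdh5(PAC)-CreERT2, an inducible recombinase driven by the VE-cadherin gene, had switched on R26-TomatoLSL. Its libraries came from pooled uninjured nerves (intact, n = 5) or from the bridge, the tissue at the lesion, at 7 days (7 dpi, n = 5) or 14 days post-injury (14 dpi, n = 4). In Cherry, cells with a Kdr-Cherry reporter came from the bridge at 7 dpi, from mice with a Cdh5-driven CreER and Plxnd1 fl/fl (KO, n = 3) or from control mice labelled Plxnd1 WT (WT, n = 3). All cells were sorted as positive for the reporter and negative for CD45, and all mice were adult. The labels name the injury a crush while the design text speaks of a bridge. No label ties a library to an animal, and the p-values therefore rest on the scatter among libraries, some of which may be technical.

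Library totals were 19057029 to 34181449 counts in Tomato and 19253137 to 33793402 in Cherry. The labels place every library in batch 1133 or 1292, and both batches hold libraries of every group. Endothelial markers were high throughout, with a summed level of the 12 listed genes of 5184 to 12922 CPM (counts scaled to a common library size by TMM) in intact libraries, 7304 to 11076 at 7 dpi, 6507 to 8428 at 14 dpi, 11851 to 12442 in KO and 11219 to 11779 in WT. RNA of other nerve cells was present too. The 8 fibroblast markers summed to 9074 to 16623 CPM in intact libraries, 4433 to 19731 at 7 dpi and 16236 to 35672 at 14 dpi, against 839 to 3278 in KO and 921 to 2292 in WT. In Tomato the median fibroblast sum lay above the median endothelial sum. These were 11012 and 9682 CPM in intact libraries, 12425.5 and 8810 at 7 dpi, and 29917 and 7896 at 14 dpi. In Cherry they were 1641 and 12003 CPM in KO, and 1318 and 11316 in WT. No marker on the endothelial, fibroblast, perineurial, mural, Schwann or macrophage list was at 0 in all libraries of a group. In bulk samples, fewer cells of a type and less RNA per cell cannot be told apart.

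**Figure D1:**
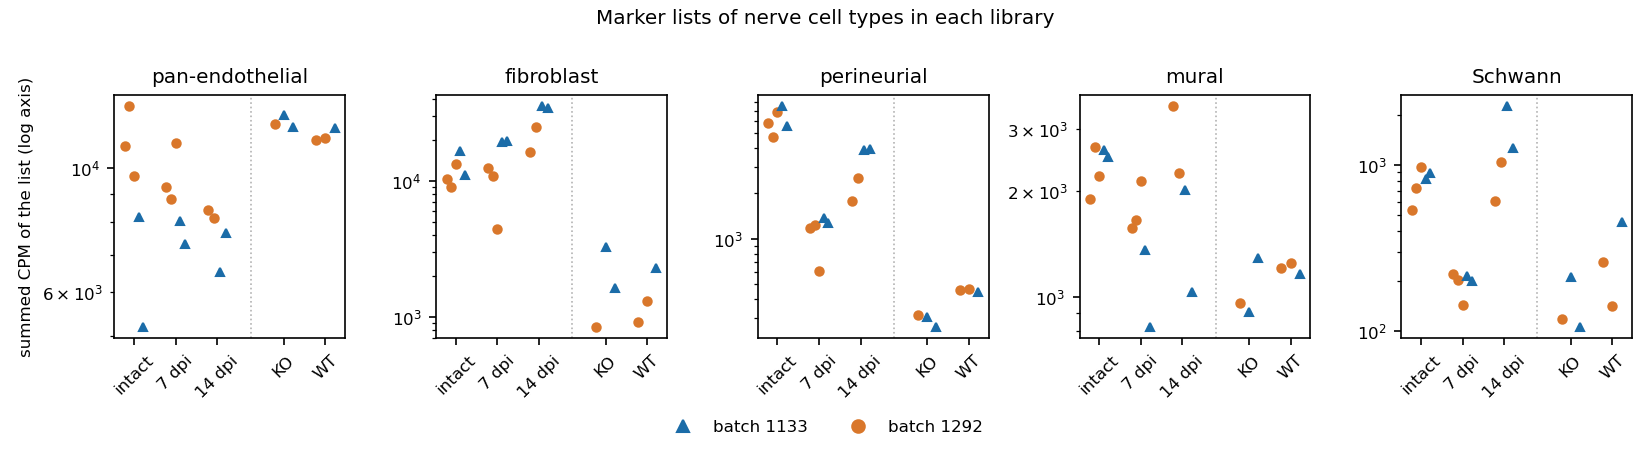
Summed TMM-scaled CPM (log axis) of 5 marker lists in each library, by group, with batch 1133 as triangles and batch 1292 as circles. Perineurial markers summed to 609 to 1370 CPM at 7 dpi, below every intact library, and fibroblast markers were lower in the Cherry libraries than in the Tomato ones.

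Efna1 and Ephb4 were the most abundant ephrin and receptor at every stage. Levels are compared between genes as CPM per kilobase of the length in the deposited tables. On that scale Efna1 ranked first of the 10 genes in all 5 groups, with 135 ± 43.5 in intact nerve (SD, n = 5), 171 ± 23.7 at 7 dpi (n = 5), 147 ± 20.6 at 14 dpi (n = 4), 218 ± 39.9 in KO and 220 ± 30.4 in WT (n = 3 each). Ephb4 ranked second in all groups, at 44.1 ± 12.3 in intact nerve, 68.7 ± 13.9 at 7 dpi, 50.0 ± 4.5 at 14 dpi, 73.6 ± 8.4 in KO and 69.3 ± 13.9 in WT. The ranges of these neighbours did not overlap in any group.

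Efnb1 ranked next in every group, at 39.9 ± 6.1 CPM per kilobase in intact nerve, 27.3 ± 6.3 at 7 dpi, 38.3 ± 8.2 at 14 dpi, 13.9 ± 2.1 in KO and 13.3 ± 1.0 in WT. Its range overlapped that of Ephb4 in intact nerve and at 14 dpi and lay apart from it at 7 dpi, in KO and in WT. In the 3 Tomato groups Epha2, Efnb2, Efna5, Epha4 and Ephb3 came below these, in an order that varied, and the ranges of neighbours among these 5 overlapped. In Cherry, Ephb1 stood above Epha4, Ephb3 and Efna5 by mean level, at 4.31 ± 1.52 in KO and 3.53 ± 0.86 in WT. Its range overlapped that of Epha4 in both groups. The lowest level in Tomato was that of Ephb1 in intact nerve (0.633 ± 0.288) and at 14 dpi (1.63 ± 0.30), and that of Ephb2 at 7 dpi (0.762 ± 0.492). In Cherry it was that of Ephb2, at 0.078 ± 0.083 in KO and 0.032 ± 0.028 in WT.

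Taken as shares of the summed level of all ephrins, Efna1 made up 53.6 ± 12.1% in intact nerve, 76.8 ± 5.7% at 7 dpi and 65.2 ± 8.7% at 14 dpi. The mean summed level was 247, 222 and 225 CPM per kilobase in turn. A share also moves with the other genes. The level of Efna1 itself did not differ from intact nerve at 7 dpi (edgeR adjusted p = 0.104) or 14 dpi (edgeR adjusted p = 0.594) by the test given below. Efnb3, a B-class ephrin outside the 10 genes, made up 21.3 ± 8.6% in intact nerve, 1.91 ± 1.03% at 7 dpi and 8.33 ± 3.87% at 14 dpi. Efnb1 held 16.4 ± 2.7%, 12.4 ± 3.2% and 16.97 ± 3.26% at the same stages, and Efnb2 held 2.52 ± 0.28%, 3.23 ± 0.65% and 3.07 ± 0.24%. Among receptors Ephb4 held 63.5 ± 5.9% in intact nerve, 76.2 ± 4.4% at 7 dpi and 64.5 ± 4.1% at 14 dpi, followed by Epha2 at 12.1 ± 2.8%, 10.4 ± 1.9% and 12.03 ± 2.18%. Epha4 made up 9.95 ± 3.65% of the receptors in intact nerve, 3.89 ± 2.00% at 7 dpi and 6.53 ± 2.88% at 14 dpi. In Cherry, also at 7 dpi, Efna1 held 90.3 ± 1.1% of the ephrin level in KO and 89.9 ± 1.5% in WT. There Efnb3 held 0.098 ± 0.077% in KO and 0.061 ± 0.038% in WT, and Efnb1 held 5.79 ± 0.29% and 5.49 ± 0.73%. The part of other cell types in all these shares was not tested.

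**Figure D2:**
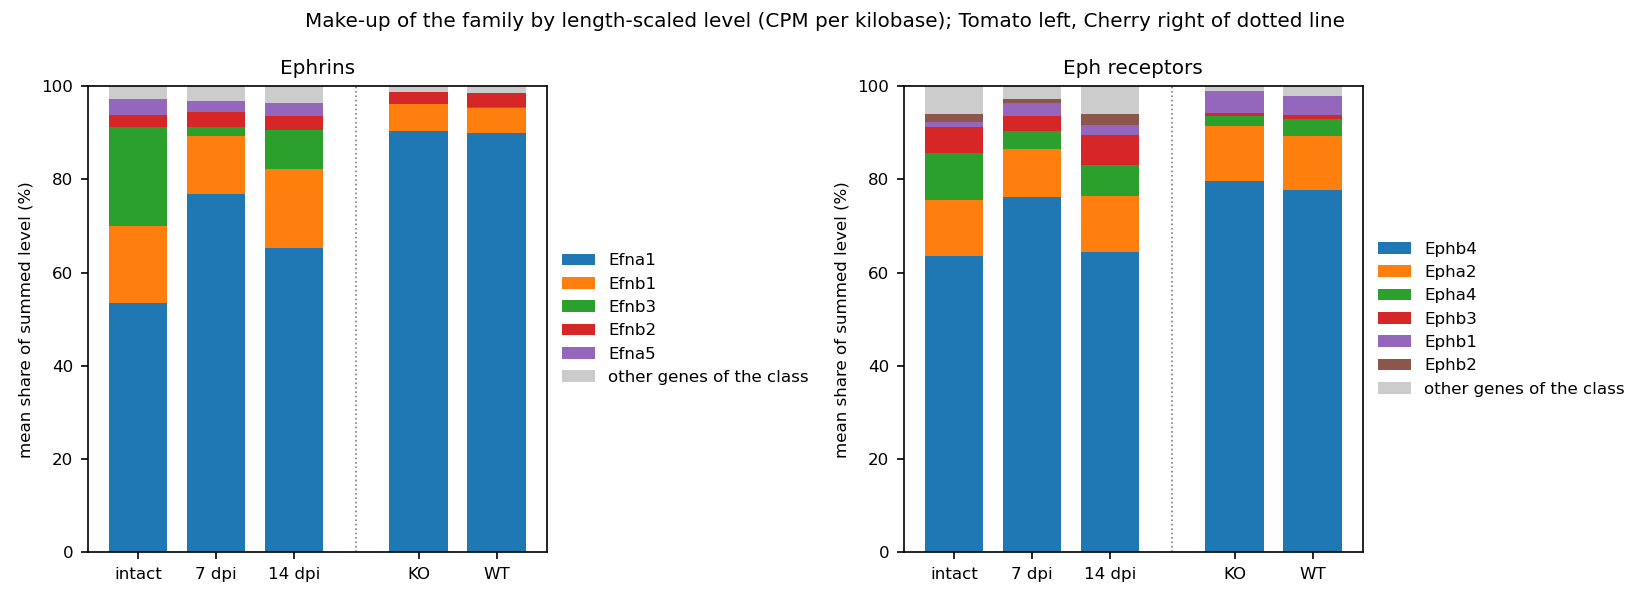
Mean share (percent) of each gene in the summed length-scaled level of all ephrins (left) and all Eph receptors (right), by group. Efna1 and Ephb4 fill most of each bar, and Efnb3 takes 1.91% of the ephrin level at 7 dpi and 21.3% in intact nerve.

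At 7 dpi the family changed in both directions relative to intact nerve. The receptors Ephb1 and Ephb4 rose, and the ephrins Efna5 and Efnb1 and the receptor Epha4 fell. That is 2 of 10 higher and 3 of 10 lower, where 32% of the 20409 genes tested were called, 15.7% higher and 16.3% lower. The median log2 fold change was -0.14 over the 10 genes and -0.10 over all genes tested. A gene was called at an edgeR adjusted p under 0.05, with the adjustment over all genes tested, and the standard error (SE) of a fold change is an approximation from its F value.

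Ephb1, a receptor for B-class ephrins, had 17.4, 7.18, 25.3, 18.5 and 14.8 CPM at 7 dpi, against 6.90, 2.63, 2.36, 3.67 and 4.97 CPM in intact nerve. All 5 libraries at 7 dpi lay above all 5 intact ones, the closest being 7.18 and 6.90 CPM, and 10.9% of all genes tested lay apart in this direction. Its log2 fold change was 2.01 ± 0.32 (SE), a 4.04-fold higher level (edgeR adjusted p = 1.33e-04). It was 1.84 within batch 1133 and 1.91 within batch 1292 as a difference of mean log2 CPM. Ephb1 (chromosome 9, 101922128 to 102354693, minus strand, GRCm38) shares exon sequence with the antisense gene Gm26846, which had 0 to 60 counts at 7 dpi and 0 to 150 in intact libraries, against 146 to 608 and 51 to 188 counts of Ephb1. The strand setting of the counting is not given in the sources used here, so reads of the overlap cannot be told apart.

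Ephb4, the venous receptor for ephrin-B2, had 332, 262, 374, 315 and 219 CPM at 7 dpi and 199, 275, 200, 152.02 and 137 CPM in intact nerve. The groups overlapped, since intact replicate 2 lay above 7 dpi replicates 2 and 5. Its level was 0.66 ± 0.17 higher on the log2 scale, which is 1.58-fold (edgeR adjusted p = 0.00565). Batch 1133 gave 0.86 and batch 1292 gave 0.52, but in the fit of batch 1133 alone, with 2 libraries a group, the call was lost (edgeR adjusted p = 0.127).

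Epha4, which binds ephrins of both classes and is known for growth cone repulsion, had 33.2, 30.3, 26.6, 8.70 and 11.1 CPM at 7 dpi, against 67.4, 50.5, 54.4, 23.7 and 24.3 CPM in intact nerve. Within either batch, every 7 dpi library was below every intact library. The groups overlapped across batches, because the batch 1133 libraries (replicates 4 and 5) were lower in both. Epha4 changed by -1.06 ± 0.15 on the log2 scale, 0.479 of the intact level (edgeR adjusted p = 3.36e-05), with -1.24 within batch 1133 and -0.92 within batch 1292. Without the batch term the fold change was -1.01 and the call was lost (edgeR adjusted p = 0.073).

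The promoters of these 3 receptors are shown because their genes gave the most marked changes of the set at 7 dpi or the highest receptor level. The 250 bases before each start, 5′ to 3′ on the gene's strand, were taken from the RefSeq promoter table (GRCm38.p6), with capitals marking the GC box GGGCGG on either strand.
Ephb1, chr9:102354694-102354943, minus strand: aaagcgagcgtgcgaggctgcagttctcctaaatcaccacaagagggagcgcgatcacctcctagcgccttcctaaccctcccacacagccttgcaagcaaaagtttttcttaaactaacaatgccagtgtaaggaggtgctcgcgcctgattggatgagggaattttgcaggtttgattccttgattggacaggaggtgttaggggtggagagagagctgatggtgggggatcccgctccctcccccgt
Ephb4, chr5:137349859-137350108, plus strand: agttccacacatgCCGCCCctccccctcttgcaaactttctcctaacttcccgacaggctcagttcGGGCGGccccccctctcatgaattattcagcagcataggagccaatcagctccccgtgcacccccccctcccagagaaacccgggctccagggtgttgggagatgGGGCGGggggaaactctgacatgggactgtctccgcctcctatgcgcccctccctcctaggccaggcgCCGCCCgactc
Epha4, chr1:77515089-77515338, minus strand: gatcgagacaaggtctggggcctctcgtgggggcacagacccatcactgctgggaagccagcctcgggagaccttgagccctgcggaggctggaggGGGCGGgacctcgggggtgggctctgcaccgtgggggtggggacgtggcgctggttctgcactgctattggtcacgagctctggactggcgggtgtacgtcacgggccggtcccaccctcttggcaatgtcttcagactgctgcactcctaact

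The stretch before Ephb4 held 4 GC boxes, that before Epha4 held 1 and that before Ephb1 held 0. Over the table's 300-base windows, 250 before the start and 50 after it, 35.7% of 32851 windows held at least 1 GC box. All 10 genes matched a window by symbol, and Efna1 had 2. The windows of Efnb1, Ephb1 and Ephb2 held no GC box, and the other 7 genes had 1 to 4. The RBPJ core TGGGAA, in 25.6% of all windows, was found in those of Efnb1 and Epha4. The hypoxia core ACGTG, in 19.6%, was found in those of Epha4 and Ephb3, and the ETS core CGGAAG, in 16.9%, in 1 window of Efna1. Both strands were searched, and none of the 4 motifs contains another.

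Efna5, a lipid-anchored ephrin that binds A-class receptors, had 27.2, 17.95, 16.6, 22.1 and 23.1 CPM at 7 dpi, against 33.2, 29.5, 43.1, 32.02 and 27.3 CPM in intact nerve. The 5 libraries at 7 dpi all lay below the 5 intact ones, though by a narrow gap (27.2 and 27.3 CPM), as did 10.6% of all genes tested. The log2 fold change was -0.63 ± 0.18 (edgeR adjusted p = 0.013), and the batches gave -0.38 (1133) and -0.78 (1292).

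Efnb1, a B-class ephrin with a membrane-spanning segment, had 107, 77.0, 62.2, 111 and 87.8 CPM at 7 dpi and 135, 104, 150, 145 and 115 CPM in intact nerve. The groups overlapped through 7 dpi replicates 1 and 4 and intact replicate 2. Efnb1 changed by -0.56 ± 0.17 on the log2 scale (edgeR adjusted p = 0.0161). For both Efna5 and Efnb1 the call was lost in batch 1133 alone (edgeR adjusted p = 0.599 and 0.667, with log2 fold changes of -0.37 for each).

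Markers of several other cell types were also lower at 7 dpi, and those of some were higher. Perineurial markers were called lower at 7 dpi for 7 of 8 listed genes, and their sum was 609 to 1370 CPM at 7 dpi and 4700 to 7554 CPM in intact nerve. Schwann markers were called lower for 5 of 8 genes, with sums of 144 to 221 CPM at 7 dpi and 536 to 970 CPM in intact nerve. Mural markers were called lower for 6 of 8 genes, with sums of 819 to 2125 CPM at 7 dpi and 1896 to 2659 CPM in intact nerve. Erythrocyte markers were called lower for 5 of 5 genes, with sums of 10.3 to 55.1 CPM at 7 dpi and 41.1 to 156 CPM in intact nerve. Fibroblast markers mostly went the other way, with 5 of 8 called higher and 1 lower. Their sums overlapped, at 4433 to 19731 CPM at 7 dpi and 9074 to 16623 CPM in intact nerve. Macrophage markers had 2 of 8 called higher and 0 lower. The part of any of these cells in the levels of Efna5, Efnb1 and Epha4 was not tested. Of 12 pan-endothelial genes, 7 were called higher and 1, Cldn5, lower, at a median log2 fold change of 0.44. Endothelial sums overlapped, at 7304 to 11076 CPM at 7 dpi and 5184 to 12922 CPM in intact nerve. The part of endothelial cells in the level of Ephb4 was not tested.

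The other 5 genes did not pass at 7 dpi. Efna1 had a log2 fold change of 0.38 ± 0.17 (edgeR adjusted p = 0.104), with 296, 338, 374, 293 and 264 CPM at 7 dpi and 263, 342, 277, 224 and 126 CPM in intact nerve. Its call was gained without intact replicate 2 (edgeR adjusted p = 0.0338), with library-size scaling (0.0335) and with DESeq2 (adjusted p = 0.0333). Ephb2 had -0.78 ± 0.31 (edgeR adjusted p = 0.0644) and 6.03, 6.10, 1.71, 14.0 and 13.7 CPM at 7 dpi, against 11.2, 8.31, 12.4, 20.7 and 10.96 CPM in intact nerve. Here the lower values lay in batch 1292, whose log2 difference was -1.27 against -0.12 in batch 1133. Ephb2 passed with no filter on low counts (edgeR adjusted p = 0.00497), with library-size scaling (edgeR adjusted p = 0.0474), with DESeq2 (adjusted p = 0.034) and without intact replicate 5 (edgeR adjusted p = 0.0203).

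Efnb2, the arterial ephrin, had 45.6, 36.1, 36.7, 28.3 and 25.6 CPM at 7 dpi and 31.4, 35.5, 28.7, 28.7 and 23.5 CPM in intact nerve. Its log2 fold change was 0.21, with an approximate 95% interval of -0.07 to 0.48. Epha2, the main receptor of ephrin-A1 in endothelium, spanned 26.8 to 45.1 CPM at 7 dpi and 22.3 to 39.8 CPM in intact nerve, an interval of -0.16 to 0.49 on the log2 scale. Ephb3, another ephrin-B receptor, spanned 5.66 to 27.9 CPM at 7 dpi and 7.49 to 37.8 CPM in intact nerve, an interval of -1.08 to 0.19.

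**Figure D3:**
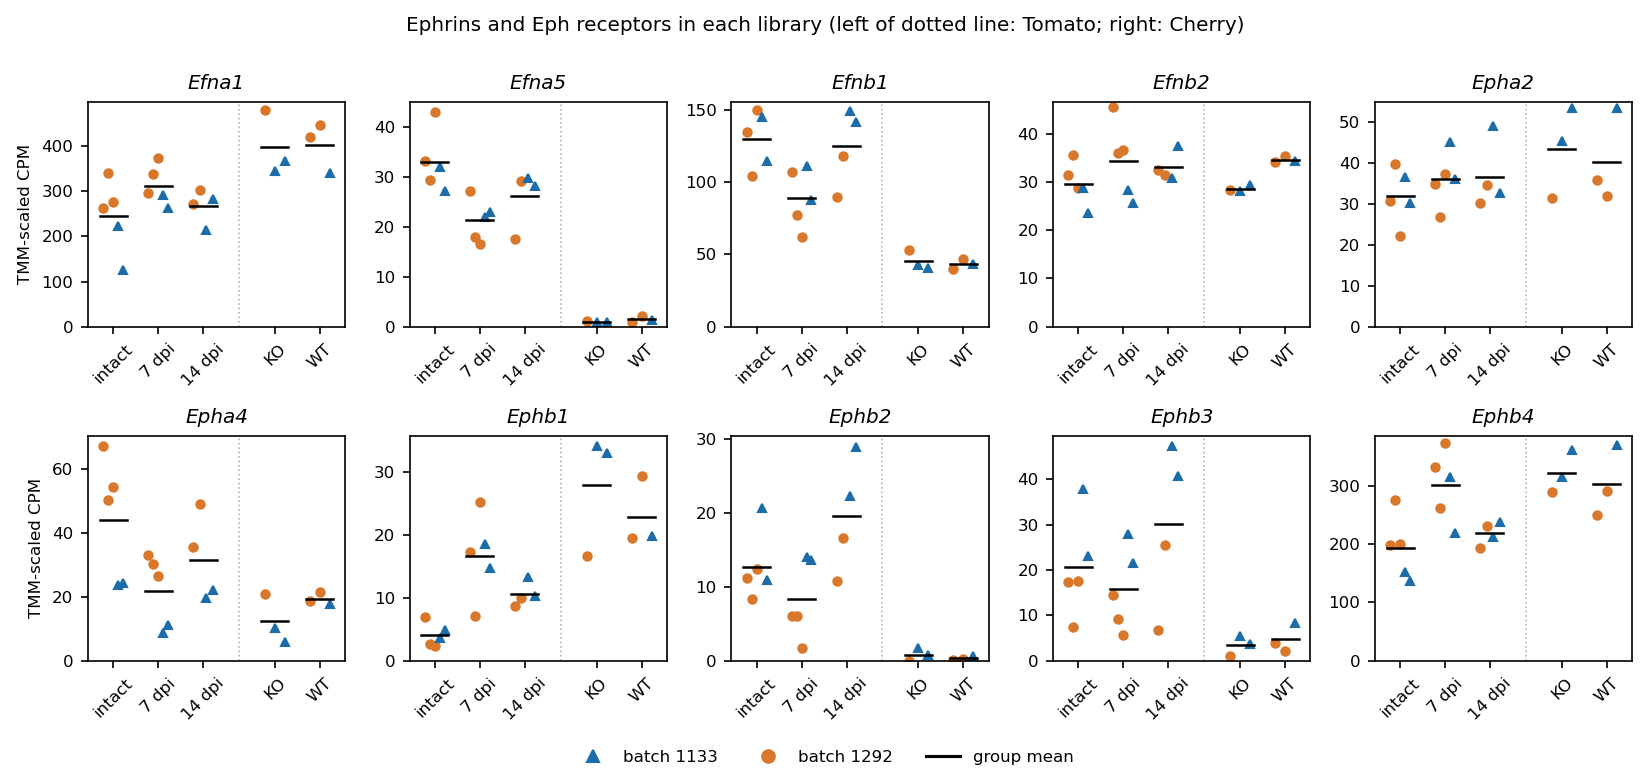
TMM-scaled CPM of each of the 10 genes in every library, by group, with batch 1133 as triangles, batch 1292 as circles and a line at the group mean. Ephb1 at 7 dpi (7.18 to 25.3 CPM) lies above all intact libraries, and Epha4 is lower at 7 dpi within each batch.

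Of the 12 other ephrin and Eph genes, 11 were tested in Tomato (all but Epha10). At 7 dpi 4 of these 11 were called, all lower, where 16.3% of all genes tested were called lower. These were Efna2 (log2 fold change -0.90), Efnb3 (-3.67), Epha1 (-0.99) and Ephb6 (-1.56). The 7 dpi values of these 4 genes all lay below their intact values, as in 10.6% of all genes tested. Efnb3 had 13.4, 13.9, 1.79, 20.7 and 15.96 CPM at 7 dpi, against 147, 80.9, 170, 228 and 182 CPM in intact nerve (edgeR adjusted p = 2.1e-06). The part of other cell types in the levels of these 4 genes was not tested. Efna3, Efna4, Epha3, Epha5, Epha6, Epha7 and Epha8 did not pass, with log2 fold changes of -1.30 to 0.44. Exons of Efna3, Efna4 and Epha1 overlap genes of the other strand. For Epha1 it is Zyx, with 3745 to 7030 counts at 7 dpi and 4780 to 14687 in intact libraries. Epha1 had 51 to 87 and 118 to 162 counts, and the part of Zyx reads in them was not tested.

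At 14 dpi 1 of the 10 genes was called against intact nerve, Ephb1, where 12% of all genes were called, 6.86% higher. Ephb1 had 8.67, 10.0, 13.3 and 10.3 CPM at 14 dpi, against 6.90, 2.63, 2.36, 3.67 and 4.97 CPM in intact nerve. All 4 libraries at 14 dpi lay above the 5 intact ones, as did 5.14% of all genes tested. Its log2 fold change was 1.34 ± 0.34, a 2.53-fold higher level (edgeR adjusted p = 0.0137). It was 1.35 within batch 1133 and 1.28 within batch 1292, but the call was lost in the fit of batch 1292 alone (edgeR adjusted p = 0.209). Of 8 fibroblast markers, 5 were called higher and 1 lower at 7 dpi, and 6 higher and 0 lower at 14 dpi, against intact nerve. The median log2 fold changes were 1.61 and 2.61 in turn. Fibroblast sums of both stages overlapped those of intact nerve. They were 4433 to 19731 CPM at 7 dpi, 16236 to 35672 CPM at 14 dpi and 9074 to 16623 CPM in intact nerve. Macrophage markers were called higher for 2 of 8 genes at 7 dpi and 3 of 8 at 14 dpi. Their sums were 55.7 to 351 CPM at 7 dpi (median 68.2) and 38.4 to 1161 CPM at 14 dpi (median 53.5). In intact nerve they were 27.3 to 47.8 CPM (median 37.2), which overlapped the sums at 14 dpi. The part of these cells in the level of Ephb1 was not tested.

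The other 9 genes had log2 fold changes at 14 dpi from -0.34 (Efna5) to 0.47 (Ephb2), at a median over all 10 of 0.20, against 0.00 over all genes tested. Epha4 had 35.6, 49.0, 19.6 and 22.3 CPM at 14 dpi, against 67.4, 50.5, 54.4, 23.7 and 24.3 CPM in intact nerve. Its 14 dpi libraries were below the intact ones within each batch, and its log2 fold change of -0.31 did not pass (edgeR adjusted p = 0.259). Ephb4 had 193, 231, 213 and 237 CPM at 14 dpi, with a log2 fold change against intact nerve of 0.25 and an approximate 95% interval of -0.10 to 0.59. Efnb3 was the 1 other family gene called, lower at 14 dpi, with 27.8, 43.9, 86.5 and 83.5 CPM and a log2 fold change of -1.603 (edgeR adjusted p = 0.0114). That is 1 of 11 tested, where 12% of all genes were called. The part of other cell types in the level of Efnb3 was not tested.

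Between the injured stages, Epha4 and Ephb2 were higher at 14 dpi than at 7 dpi, which is 2 of 10, where 9.93% of genes were called, 5.73% higher. The 7 dpi libraries serve in this comparison and in that with intact nerve, so the changes of Epha4 are not independent. Epha4 had 35.6, 49.0, 19.6 and 22.3 CPM at 14 dpi, against 33.2, 30.3, 26.6, 8.70 and 11.1 CPM at 7 dpi. Within either batch the 14 dpi libraries lay above the 7 dpi ones, and the log2 fold change was 0.75 ± 0.16 (edgeR adjusted p = 0.00552).

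Ephb2, the receptor of Schwann cell sorting named above, had 10.7, 16.6, 22.3 and 29.0 CPM at 14 dpi, against 6.03, 6.10, 1.71, 14.0 and 13.7 CPM at 7 dpi. The groups overlapped only across batches. The log2 fold change was 1.25 ± 0.32 (edgeR adjusted p = 0.0193), with 0.85 within batch 1133 and 1.604 within batch 1292. The call of Ephb2 was lost without 14 dpi replicate 2 (edgeR adjusted p = 0.0798) and without 14 dpi replicate 4 (edgeR adjusted p = 0.0565). Both genes lost their call without the batch term, at log2 fold changes of 0.53 for Epha4 (edgeR adjusted p = 0.609) and 1.24 for Ephb2 (edgeR adjusted p = 0.133). They also lost it within a batch alone, at 1.12 and 0.93 in batch 1133 and 0.47 and 1.55 in batch 1292 for Epha4 and Ephb2 in turn.

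Markers of other cells were also higher at 14 dpi than at 7 dpi. Schwann markers summed to 608 to 2253 CPM at 14 dpi and 144 to 221 CPM at 7 dpi, with 5 of 8 called higher. Perineurial markers summed to 1769 to 3921 CPM at 14 dpi and 609 to 1370 CPM at 7 dpi, with 5 of 8 called higher, and 3 of 8 fibroblast markers were called higher. The part of these cells in the levels of Epha4 and Ephb2 was not tested. Among the other family genes Efna2, Efnb3 and Ephb6 were called higher at 14 dpi than at 7 dpi, with log2 fold changes of 0.99, 2.07 and 2.03. That is 3 of 11 tested, where 5.73% of all genes were called higher. For Efna2, Efnb3 and Ephb6 the part of other cells was not tested either.

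Ephb1 (-0.67), Ephb4 (-0.41), Efnb1 (0.46) and Ephb3 (0.79) did not pass between 14 and 7 dpi, at edgeR adjusted p-values of 0.259, 0.179, 0.125 and 0.178. Ephb3 had 6.75, 25.5, 47.2 and 40.6 CPM at 14 dpi and 14.5, 9.15, 5.66, 27.9 and 21.5 CPM at 7 dpi. Its call was gained with no filter on low counts (edgeR adjusted p = 0.00303) and without 14 dpi replicate 1, the lowest of its group (edgeR adjusted p = 0.0417). Ephb4 passed as lower at 14 dpi with DESeq2 (log2 fold change -0.44, adjusted p = 0.0457). The log2 fold change of Efnb2 was 0.00, with an approximate 95% interval of -0.30 to 0.29.

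**Figure D4:**
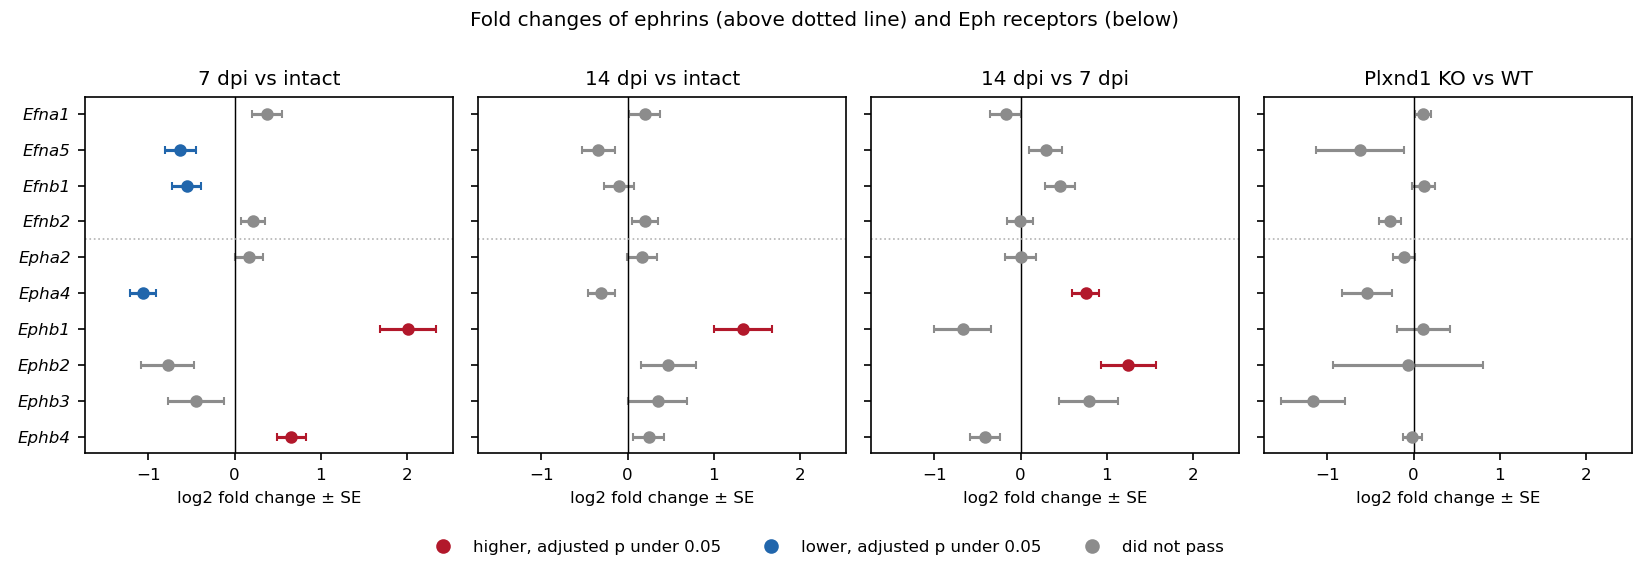
Log2 fold changes with SE of the 4 ephrins and 6 receptors in 4 comparisons, coloured where the edgeR adjusted p was under 0.05. Coloured points are Efna5, Efnb1, Epha4, Ephb1 and Ephb4 at 7 dpi, Ephb1 at 14 dpi, and Epha4 and Ephb2 between 14 and 7 dpi, with none for KO against WT.

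The ratio of the arterial ligand to the venous receptor, Efnb2 over Ephb4, was computed per library as the log2 of length-scaled levels. It averaged -3.26 ± 0.28 at 7 dpi and -2.80 ± 0.21 in intact nerve (SD, n = 5 each), a difference of -0.46. The exact two-sided permutation p was 0.0317, and 0.0952 after adjustment over 4 comparisons. With exchanges only within batches the exact permutation p was 0.0667, and the difference was -0.81 in batch 1133 and -0.22 in batch 1292. In 3 of 5 libraries at 7 dpi the ratio lay below all intact libraries, so the groups overlapped.

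At 14 dpi the ratio was -2.86 ± 0.13 (n = 4), which differed by -0.05 from intact nerve (exact permutation p = 0.714) and by 0.41 from 7 dpi (exact permutation p = 0.0476, adjusted 0.0952). None of the 4 comparisons passed after adjustment. Arterial genes were called both ways at 7 dpi, 5 of 12 higher and 5 lower. Of all genes tested, 15.7% were called higher and 16.3% lower. The 3 called arterial genes of largest fold were Cxcr4, a chemokine receptor (log2 fold change 3.17), Bmx, an endothelial kinase (-2.54), and Hey2, a Notch target (-1.70). Of 8 venous genes 4 were called higher and 1 lower, led by Aplnr, the apelin receptor (3.20), Selp, P-selectin (2.02), and Nr2f2, the venous transcription factor (-1.61).

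**Figure D5:**
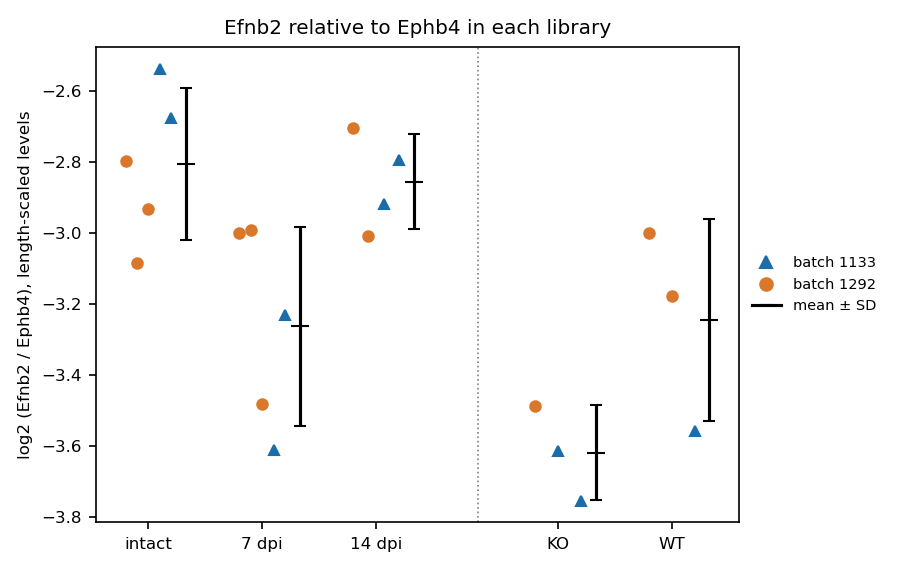
Log2 ratio of Efnb2 to Ephb4, from length-scaled levels, in each library, with the mean and SD of each group beside its points and the batches as symbols. The mean is -3.26 at 7 dpi and -2.80 in intact nerve, and the groups overlap.

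With endothelial deletion of Plxnd1, none of the 10 genes was called. Plxnd1 itself had 131.4, 160.5 and 160.1 CPM in KO and 350, 324 and 343 CPM in WT, a log2 fold change of -1.23 ± 0.10 (edgeR adjusted p = 1.29e-04). The 0 of 10 stands beside 0.308% of 16227 genes called, and 1868 genes had an unadjusted p under 0.05. Among the 10 genes that held for Ephb3 alone, and DESeq2 also called 0 of them. The median log2 fold change was -0.09 over the 10 genes and -0.01 over all genes.

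Efnb2 had 28.3, 28.2 and 29.4 CPM in KO, against 34.2, 35.3 and 34.4 CPM in WT. All 3 KO libraries were below all 3 WT ones, as in 6.3% of genes tested, and the spread within each group was small. The log2 fold change of -0.28 ± 0.13 did not pass (edgeR adjusted p = 0.435). Ephb4 had 289, 315 and 361 CPM in KO and 249, 291 and 369 CPM in WT, with a log2 fold change of -0.02 and an approximate 95% interval of -0.23 to 0.20. The Efnb2 to Ephb4 ratio was -3.62 ± 0.13 in KO and -3.24 ± 0.29 in WT (SD, n = 3 each), an exact permutation p of 0.2 where 0.1 is the smallest that this design can give.

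Ephb3 had 1.04, 5.41 and 3.75 CPM in KO and 3.97, 2.25 and 8.38 CPM in WT, a log2 fold change of -1.17 ± 0.37 (edgeR adjusted p = 0.255). The groups overlapped only across batches, with just 1 WT library in batch 1133 and 1 KO library in batch 1292. Epha4 had 20.9, 10.4 and 5.84 CPM in KO and 18.8, 21.6 and 17.9 CPM in WT (log2 fold change -0.54, edgeR adjusted p = 0.503). The batch 1133 libraries gave both of the lower KO values of Epha4. Ephb1 had 16.6, 34.2 and 33.03 CPM in KO and 19.5, 29.3 and 19.9 CPM in WT, an interval of -0.49 to 0.72 on the log2 scale.

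Efna1 had 482, 346 and 367 CPM in KO and 420, 447 and 340 CPM in WT, with an interval of -0.07 to 0.29. Efnb1 had 53.0, 42.4 and 40.5 CPM in KO and 40.1, 46.5 and 43.2 CPM in WT, with an interval of -0.14 to 0.37. Epha2 spanned 31.4 to 53.5 CPM in KO and 31.9 to 53.5 CPM in WT. Efna5 was at 0.83 to 1.04 CPM in KO and 1.01 to 2.14 CPM in WT, and Ephb2 at 0 to 1.80 CPM in KO and 0.16 to 0.69 CPM in WT. The count of 0 for Ephb2 in KO replicate 1 allows up to 3 counts, or 0.164 CPM, counting error only. Of the 12 other family genes 7 were tested and 0 called by edgeR. An unadjusted edgeR p under 0.05 was found for 3 of them, and for 1868 of all 16227 genes tested. Efna2, Epha1 and Epha5 were lower in all 3 KO libraries than in any WT library, as in 6.3% of genes tested. Efna2 had only 2 to 17 counts in KO and 15 to 19 in WT.

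Several family genes were far lower in the Cherry sort than in the Tomato sort at the same stage. The experiments differ in reporter and were normalized separately, so their levels are set side by side with no test. Efna5 was at 1.01 to 2.14 CPM in Cherry WT and 16.6 to 27.2 CPM in Tomato at 7 dpi, Ephb2 at 0.16 to 0.69 and 1.71 to 14.0 CPM, and Efnb3 at 0.19 to 0.65 and 1.79 to 20.7 CPM. Efna1 (340 to 447 and 264 to 374 CPM), Efnb2 (34.2 to 35.3 and 25.6 to 45.6 CPM) and Ephb4 (249 to 369 and 219 to 374 CPM) overlapped between the sorts. So did Ephb1 (19.5 to 29.3 and 7.18 to 25.3 CPM). Fibroblast markers summed to 921 to 2292 CPM in Cherry WT and 4433 to 19731 CPM in Tomato at 7 dpi, and perineurial markers to 447 to 470 and 609 to 1370 CPM. Their part in the low levels was not tested.

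Across the 14 Tomato libraries, with log2 CPM centred within batch, the 10 genes fell into patterns that overlap with the group changes above. Efna5 and Efnb1 had the highest correlation among the 10 (Pearson r = 0.90), followed by Efnb1 with Ephb3 (0.82) and Ephb2 (0.79) and Efna1 with Ephb4 (0.77). Epha4 ran opposite to Ephb4 (-0.73) and Ephb1 (-0.70). These values describe libraries that share stage, depth and cell make-up, and carry no test.

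Among 10160 genes of sufficient level, those most like Ephb4 were Tie1, an endothelial receptor kinase (r = 0.97), Adcy4 (0.96), an adenylate cyclase, and Eng, the TGF-beta co-receptor endoglin (0.96). Those most like Ephb1 were Map4k5 (0.95), Man1a (0.95) and Adgrl2 (0.94), and those most like Epha4 were Gstt3 (0.97), Zfp672 (0.97) and Ocln, the tight junction protein occludin (0.97). Efnb1 was most like Twsg1 (0.96), Add3 (0.95) and Cpe (0.95), and Efna5 most like Atp6ap2 (0.95), Axl (0.94) and Twsg1 (0.94). Ephb2 was most like Olfml1 (0.98), Glt8d2 (0.97) and Podxl2 (0.97), and Ephb3 most like Ptprs, Mrc2 and Tbx15 (0.87 to 0.88). Efna1 was nearest to Puf60 (0.95), Dctn2 (0.95) and 4833438C02Rik (0.94), Efnb2 to Gopc (0.85), Ubald1 (0.84) and Faap20 (0.84), and Epha2 to Tmem94 (0.90), Cdc42ep3 (0.89) and Arid5b (0.88).

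Downstream partners, 31 listed adaptors, kinases, exchange factors and phosphatases of Eph and ephrin signalling, also changed both ways at 7 dpi. Of these, 11 were called higher and 9 lower, at a median log2 fold change of 0.11 against -0.10 over all genes, of which 32% were called. The rises of largest fold were those of the adaptor Grb10 (1.36), the Src-family kinase Fyn (1.33) and the PDZ protein syntenin, Sdcbp (1.21). The largest falls were those of Ngef, the exchange factor ephexin that acts below EphA receptors (-2.21), Ptpn13, a phosphatase of B-class ephrins (-2.03), and Tiam1, an exchange factor for Rac (-1.64).

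At 14 dpi 6 partners were called higher and 2 lower against intact nerve, at a median of 0.28, where 12% of all genes were called. Higher were, among others, the endocytic adaptor Dab2 (1.05), Fyn (0.91) and the exchange factor Vav3 (0.91), and lower were Ptpn13 (-0.92) and the exchange factor Kalrn (-0.73). Between 14 and 7 dpi 3 were called higher, Ngef (2.46), Ptpn13 (1.11) and the polarity protein Pard3 (1.03), where 9.93% of all genes were called. Perineurial and Schwann markers were called lower at 7 dpi than in intact nerve for 7 of 8 and 5 of 8 genes and higher at 14 than at 7 dpi for 5 of 8 genes each, and their part in the levels of Ngef, Ptpn13 and Pard3 was not tested. In KO against WT 28 partners were tested, 0 were called by edgeR, and the median was -0.14. An unadjusted edgeR p under 0.05 was found for 3 of them, and for 1868 of all 16227 genes tested.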

How the data were processed

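The tables deposited by the authors hold unnormalized whole-number counts for each gene, per the file headers: 1 table an experiment, plus a Cherry table after ComBat-Seq batch correction. Trimmomatic 0.39, STAR 2.5.3a, featureCounts 1.6.4, Cell Ranger 3.0.2 and the build mm10 (GRCm38) are named, per the submitters' processing notes. For the annotation release, the strand setting and reads that align more than once, the sources used here give nothing, and related genes may share reads.

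Counts were analysed with edgeR 4.0.16 in R 4.3.3: genes were kept by filterByExpr, scaled by TMM and tested by the quasi-likelihood F test (robust) on group and batch, over 20409 genes in 1 fit of the 14 Tomato libraries and 16227 genes in 1 fit of the 6 Cherry libraries. Calls use a Benjamini-Hochberg adjusted p under 0.05 over all genes tested. The SE was approximated from the size of the log2 fold change and the square root of its F value, and intervals are 1.96 SE on each side. CPM values use TMM factors of the experiment they belong to, and length-scaled levels divide them by the length column. Differences within a batch are of log2(CPM + 0.5). The ratio of Efnb2 to Ephb4 was tested by exact permutation (SciPy).

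On data simulated on the 7 dpi comparison, over 20409 genes, 71% of 2-fold and 87% of 4-fold changes were recovered at a false share of 6%. For 14 dpi against intact these were 58% and 85% at 4%, and for KO against WT, over 16227 genes, 64% and 87.9% at 9%. The comparison of 14 with 7 dpi was not simulated. Each simulation changed 200 genes and held no batch effect, while 32% of the genes tested were called at 7 dpi. These rates may therefore differ in the real comparisons. Counts of replicate libraries differed beyond sampling noise in all 32 pairs (chi-square per degree of freedom 15.4 to 121). The alternatives were library-size scaling, DESeq2 size factors, DESeq2 1.42.0, no filter, no batch term, each batch alone, each library left out and the ComBat-Seq counts. The 10 genes and all gene lists were chosen with earlier results of these data known. All 10 genes were named, and of the signalling partners up to 3 called genes of largest fold a direction. Of the arterial and venous lists, the 3 called genes of largest fold in either direction were named. For likeness, the 3 genes of highest Pearson r were named, among those averaging 3 or more in log2 CPM.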

Additional observations from a re-analysis of the deposited data

Results flagged for a closer look

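Efna5 in 14 dpi replicate 1 (17.5 CPM) lay far below the other 3 libraries of its group, of which the nearest had 28.3 CPM. This was the 1 such value in 30 gene and group combinations of 4 or 5 libraries, and chance marks about 1 in 20.

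The change of Epha4 relative to intact nerve differed between 14 and 7 dpi by 0.75 on the log2 scale (edgeR adjusted p = 0.00552). For Ephb2 the difference was 1.25 (edgeR adjusted p = 0.0193). Neither passed without the batch term, as given with the results.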

How the results depend on the processing

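No paired analysis was possible because the labels give no replicate numbers that link libraries across groups. Counting depth limits Ephb2 and Efna5 in Cherry, with 0 to 60 counts a library. The 5 calls at 7 dpi and the call of Ephb1 at 14 dpi held when any 1 library was left out.

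In 14 against 7 dpi, DESeq2 called 3255 genes and 3 of the 10, the fit with no filter also called 3 of the 10, and edgeR called 1226 with no batch term, 366 in batch 1133 alone and 726 in batch 1292 alone, with 0 of the 10 genes under each of these last 3. Leaving out 1 library gave 1305 (without 14 dpi replicate 2) to 1901 genes, and 1 (without 14 dpi replicate 2 or 4) to 3 of the 10. In 7 dpi against intact, batch 1133 alone gave 2042 genes and 2 of the 10, no batch term gave 4 of the 10, no filter 6, and library-size scaling and DESeq2 7 each. In 14 dpi against intact, batch 1133 alone gave 795 genes, and batch 1292 alone gave 1500 genes and 0 of the 10. In KO against WT, counts of genes were 241 (DESeq2), 230 (no filter), 5 (no batch term), 31 (batch 1292 alone) and 550 (ComBat-Seq counts), and with 1 library left out 6 to 40 (6 without KO replicate 3, 9 without KO replicate 1, 11 without WT replicate 3 and 25 without WT replicate 1). The 10 genes stayed at 0 called under every alternative for KO. The cause of these shifts was not tested, except that each batch alone has fewer libraries.

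Directions that reversed were all of uncalled values. In 14 against 7 dpi, Efnb2 turned to 0.01 (no filter) and 0.38 (batch 1133 alone) and ranged from -0.14 to 0.08 with 1 library left out. Epha2 turned to 0.02 (no filter), 0.03 (no batch term) and 0.05 (batch 1133 alone) and ranged from -0.14 to 0.07. In 14 dpi against intact, batch 1133 alone gave 0.04 for Efna5 and 0.22 for Efnb1, and batch 1292 alone gave -0.04 for Efna1, -0.01 for Efnb2 and -0.10 for Ephb4. In KO against WT without the batch term, values were -0.01 (Efna1), 0.11 (Epha2), 1.34 (Ephb2) and 0.09 (Ephb4). Batch 1133 alone gave -0.06 (Efnb1) and 0.89 (Ephb2), batch 1292 alone gave 0.05 (Epha4), -0.56 (Ephb1) and 0.10 (Ephb4), and the ComBat-Seq counts gave 0.01 (Ephb4). With 1 library left out, Ephb2 ranged from -5.20 to 0.89, Epha4 from -1.13 to 0.04, Ephb1 from -0.56 to 0.76, Efnb1 from -0.06 to 0.28 and Ephb4 from -0.12 to 0.09.

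The Efnb2 to Ephb4 ratio differed at 7 dpi by -0.81 within batch 1133 and by -0.22 within batch 1292. At 14 dpi against intact nerve it was 0.08 within batch 1292 and -0.12 to 0.02 with 1 library left out.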
